A study of Mus musculus with 405 samples.

Results

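The genes described here are 9 genes of lipid efflux and of the phagocyte lysosome: Abca1, Abcg1, Apoe, Lpl, Ctsb, Ctsd, Cd63, Gpnmb and Lgals3. They were chosen by their symbols, with earlier results of the same tables known, and all 9 were found among the 13304 genes of a table of expression deviations from a chemical screen and among the 23893 genes of a table of read counts for the fungicide pyraclostrobin. Their values with pyraclostrobin and with the chemicals of its cluster were therefore part of what chose them and are given as a description, with calls counted beside those of all genes and no p. Tests were run with topotecan, with azole fungicides and among vehicle libraries. Whether the earlier results included these comparisons is not known, so their p-values may not be free of the choice. The chemicals set against the azoles also include those of pyraclostrobin's cluster.

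Cortical cells from embryos of C57BL/6J dams and CAST/EiJ sires, dated embryonic day 15 in the labels, were cultured, given an antimitotic, and exposed at day 7 in vitro to 1 chemical or to vehicle (DMSO) for 24 h. All groups shared the hybrid genotype and this handling, and polyadenylated RNA of whole cultures was sequenced. The screen held 49 vehicle libraries and 344 libraries of 297 chemicals, of which 282 had a single library and topotecan at 0.3 μM, a topoisomerase inhibitor that served as positive control, had 32. The count table held 4 libraries of pyraclostrobin at 0.1 μM and 4 vehicle libraries, with 2409623 to 7833440 counts each. The 2 libraries numbered 428, 1 of each group, stood apart from the others in several members, as described with the values, and the treated one is also the pyraclostrobin library of the screen. The labels call the cells cortical neurons, yet markers of neurons, astrocytes, microglia and oligodendrocyte lineage cells were all counted, so the cultures were mixed, and in such bulk RNA fewer cells of a type and less RNA per cell cannot be told apart.

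Cells remove cholesterol through 2 ATP-driven transporters of the plasma membrane and of internal vesicles. ABCA1 loads cholesterol and phospholipid onto lipid-poor apolipoproteins, ABCG1 passes it to formed particles, and apolipoprotein E is the main acceptor and carrier in the brain, made mostly by astrocytes and by activated microglia. Genes for all of these are textbook targets of the liver X receptors, which respond to oxidized cholesterol. Lipoprotein lipase cleaves triglycerides of such particles. In the lysosome, cathepsin B is a cysteine protease and cathepsin D an aspartic protease, and CD63 is a tetraspanin of late endosomes, lysosomes and exosomes. GPNMB, a transmembrane glycoprotein, and galectin-3, a lectin that binds damaged lysosomes and is encoded by Lgals3, are well known from phagocytes that have taken up lipid or myelin.

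In the mm9 build, to which the study aligned its reads, Abca1 lies at chr4:53043659-53172767 and spans 129.1 kb, Abcg1 at chr17:31194643-31252722, Apoe at chr7:20281458-20284515, Lpl at chr8:71404390-71431347, Ctsb at chr14:63741302-63764758, Ctsd at chr7:149557053-149573943, Cd63 at chr10:128345975-128349872, Gpnmb at chr6:48986517-49020928 and Lgals3 at chr14:47987426-48005835, each a protein-coding gene of GENCODE. RefSeq promoters of the GRCm38.p6 build, from 250 bases before to 50 bases after the start, were held for 6 of the 9 members, and Abcg1, Ctsb and Lpl had no entry. Both strands were searched for CACGTG, the core of the element bound by TFEB, a regulator of lysosomal genes; for its longer form TCACGTG, which overlaps it; for TCATGTG and TGANTCA; and for a pair of half-sites GGTNA set 5 bases apart, the spacing of the element bound by liver X receptors. Of 32851 promoters of this length, 7.15% held CACGTG, 3.77% TCACGTG, 3.77% TCATGTG, 7.81% TGANTCA and 0.718% the paired half-sites. Matches stood in 3 members, and their promoters are printed 5′ to 3′ with the matches in capitals, because they are the members with a match. Ctsd held CACGTG at 2 places, 245 and 98 bases before the start, both within TCACGTG. Abca1 held CACGTG 147 bases and the paired half-sites 67 bases before the start, and Gpnmb held TGANTCA 8 bases after it.
Abca1, chr4:53159846-53160145, minus strand: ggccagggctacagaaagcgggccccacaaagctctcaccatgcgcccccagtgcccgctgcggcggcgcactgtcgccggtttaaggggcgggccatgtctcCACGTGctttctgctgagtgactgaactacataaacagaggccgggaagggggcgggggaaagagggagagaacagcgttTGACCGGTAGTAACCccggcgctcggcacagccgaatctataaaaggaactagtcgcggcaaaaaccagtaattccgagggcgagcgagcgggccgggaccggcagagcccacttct
Ctsd, chr7:142387778-142388077, minus strand: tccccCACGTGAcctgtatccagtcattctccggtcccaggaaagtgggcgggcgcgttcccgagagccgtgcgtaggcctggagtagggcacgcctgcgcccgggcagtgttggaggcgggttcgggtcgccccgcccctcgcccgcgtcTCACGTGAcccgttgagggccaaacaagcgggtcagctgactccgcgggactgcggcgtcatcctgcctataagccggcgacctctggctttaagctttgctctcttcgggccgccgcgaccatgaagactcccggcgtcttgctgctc
Gpnmb, chr6:49036268-49036567, plus strand: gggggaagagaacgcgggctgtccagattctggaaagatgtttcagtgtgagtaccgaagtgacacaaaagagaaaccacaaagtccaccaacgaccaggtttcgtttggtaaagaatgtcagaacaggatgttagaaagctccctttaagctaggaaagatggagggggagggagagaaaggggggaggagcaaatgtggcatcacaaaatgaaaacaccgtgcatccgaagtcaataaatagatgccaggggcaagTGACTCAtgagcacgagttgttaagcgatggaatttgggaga
No match was found in the windows of Cd63 and Lgals3 or in the 3 windows of Apoe.

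With pyraclostrobin, which blocks the Qo site of mitochondrial complex III, 7 of the 9 members were higher in every treated library than in any vehicle library. Abcg1 and Lpl overlapped between the groups. The 7 were also those called by edgeR's quasi-likelihood test at an adjusted p under 0.01, beside 12.1% of all 12324 genes tested that were called higher and 9.22% called lower. The share of all genes whose groups were separated in this way is not given here. Since the choice of members used this contrast, nothing is read from these counts. With 1 library left out, 5 to 8 members were called. Apoe was not called without vehicle library 702, 703 or 704, at 1.51, 1.53 and 1.48, nor Cd63 without vehicle library 703, at 2.19, and Lpl was called without vehicle library 428, at 0.50. Values are CPM (counts scaled to library size with TMM factors), and log2 fold changes carry the standard error of the fit.

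Among the genes of cholesterol efflux, Abca1 stood at 512, 236, 283 and 240 CPM in the pyraclostrobin libraries numbered 428, 702, 703 and 704, and at 82.4, 63.4, 42.2 and 45.9 CPM in the vehicle libraries of the same numbers. The treated libraries were all above the vehicle libraries, with number 428 highest in both groups, and the log2 fold change was 2.46 ± 0.29. Abcg1, the partner transporter, stood at 17.3, 19.2, 18.7 and 17.4 CPM with pyraclostrobin and at 14.6, 26.1, 19.1 and 19.96 CPM with vehicle. These values lay within the vehicle range, with a log2 fold change of -0.13 ± 0.19. Apoe stood at 1256, 609, 757 and 614 CPM with pyraclostrobin and at 473, 191, 204 and 175 CPM with vehicle. Number 428 was again highest in both groups, and the log2 fold change of 1.64 ± 0.34 became 1.80 ± 0.09 without the 2 libraries of that number. Lpl, the lipase, stood at 141, 115, 134 and 116 CPM with pyraclostrobin and at 202, 96.1, 89.6 and 83.6 CPM with vehicle. Here 1 vehicle library, number 428, lay above all others and the remaining 3 lay below all treated libraries, so that the log2 fold change was 0.11 ± 0.26 with all libraries and 0.45 ± 0.09 without both libraries numbered 428, where it was called.

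Of the lysosomal members, the cathepsin genes differed less in fold and were among the most highly expressed. Ctsb stood at 901, 764, 918 and 771 CPM with pyraclostrobin and at 521, 386, 360 and 361 CPM with vehicle, a log2 fold change of 1.04 ± 0.14, the smallest of the 7. Ctsd stood at 1131, 1005, 1219 and 1008 CPM with pyraclostrobin and at 549, 355, 309 and 320 CPM with vehicle, a log2 fold change of 1.51 ± 0.18. In both cathepsin genes the treated libraries lay within a narrow band and the vehicle library numbered 428 was the highest of its group. Cd63 stood at 47.1, 22.2, 25.9 and 20.1 CPM with pyraclostrobin and at 13.2, 3.89, 3.10 and 3.00 CPM with vehicle. The log2 fold change of Cd63 was 2.45 ± 0.47 and 2.82 ± 0.23 without the libraries numbered 428.

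The 2 phagocyte genes gave the largest folds. Gpnmb stood at 128, 123, 159 and 151 CPM with pyraclostrobin and at 16.05, 15.6, 10.2 and 14.4 CPM with vehicle, and number 428 did not stand apart. Its log2 fold change of 3.34 ± 0.17 had the smallest error relative to its size among the members. Lgals3 stood at 45.9, 21.04, 35.4 and 16.6 CPM with pyraclostrobin and at 2.85, 1.17, 2.69 and 0.75 CPM with vehicle. The vehicle values of Lgals3 rested on only 8, 3, 20 and 5 counts, and its log2 fold change was 3.98 ± 0.45.

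**Figure D1:**
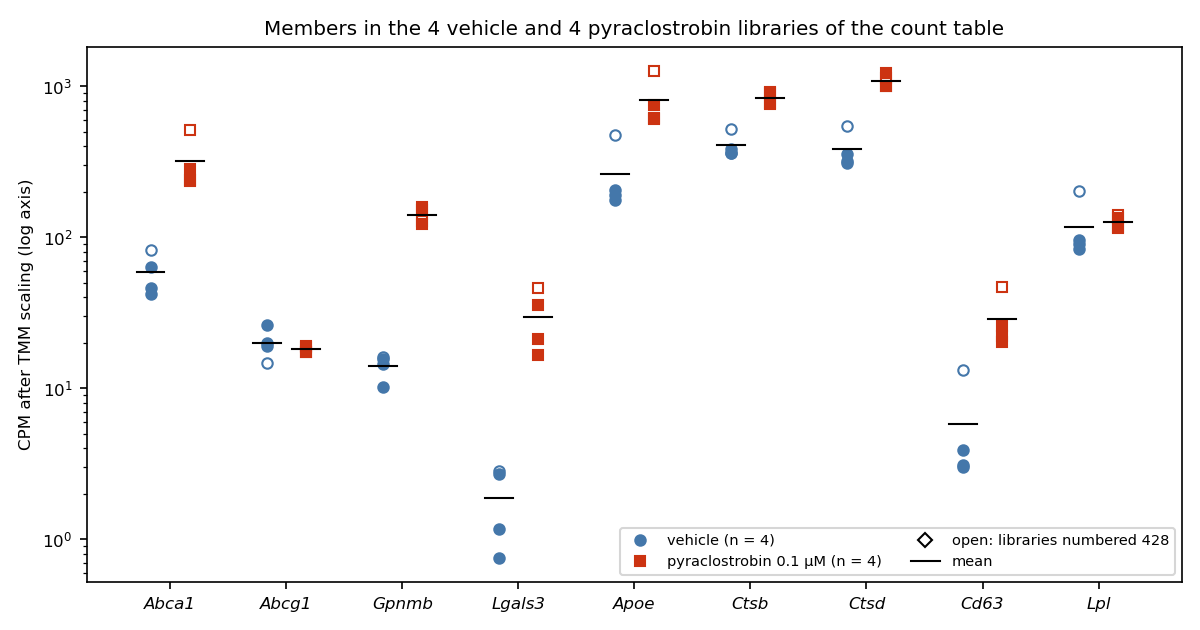
Normalised counts (CPM, TMM scaling), on a log axis, of the 9 members in each of 4 vehicle (blue circles) and 4 pyraclostrobin (red squares) libraries, with open symbols for the libraries numbered 428 and bars for means. For 7 members every treated library lies above every vehicle library, while Abcg1 and Lpl overlap.

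On a scale per kilobase of exon (RPKM, from the same counts and the joined exon length of each gene in GENCODE), levels in vehicle libraries were highest for Ctsd at 152 ± 44.5 RPKM (SD, n = 4), followed by Apoe at 132 ± 71.7 and Ctsb at 85.9 ± 16.3. Lpl followed at 17.3 ± 8.24 RPKM and Abca1 at 5.64 ± 1.78 RPKM. Cd63 at 5.62 ± 4.80 RPKM and Abcg1 at 4.91 ± 1.16 RPKM came next, and Gpnmb at 3.05 ± 0.57 RPKM and Lgals3 at 1.00 ± 0.57 RPKM were lowest. Ranges of neighbours in this order overlapped for Ctsd and Apoe, for Apoe and Ctsb, for Abca1 and Cd63 and for Cd63 and Abcg1. Within each vehicle library Apoe was above Ctsb, whereas the other overlapping neighbours changed their order between libraries. With pyraclostrobin Gpnmb reached 30.4 ± 3.79 RPKM, and its range overlapped that of Abca1 at 30.7 ± 12.7 RPKM and that of Cd63 at 27.95 ± 12.0 RPKM. Lgals3 at 16 ± 7.24 RPKM then overlapped Lpl at 18.6 ± 1.90 RPKM, and Abcg1 at 4.45 ± 0.23 RPKM was the lowest of the 9.

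Markers of cell types moved in the same libraries. The 15 microglia markers summed to 119 to 201 CPM with pyraclostrobin and 34.5 to 51.7 CPM with vehicle, and the 10 markers of endothelial, mural and fibroblast cells to 719 to 1056 CPM and 61.2 to 144 CPM, of which Acta2, an actin of smooth muscle and activated stromal cells, made up 571 to 781 CPM and 29.4 to 80.2 CPM. The 10 neuron markers summed to 3943 to 5053 CPM with pyraclostrobin and 9354 to 9850 CPM with vehicle, and these 3 lists did not overlap between groups. The 10 astrocyte markers, at 1154 to 3819 CPM and 754 to 1291 CPM, overlapped, as did the 8 markers of the oligodendrocyte lineage, at 196 to 311 CPM and 107 to 203 CPM. Cldn5, which marks endothelial cells, was the only marker at 0 in all libraries. P2ry12, a receptor of homeostatic microglia, stood at 0 to 1.58 CPM with pyraclostrobin and 0 to 0.60 CPM with vehicle, and Trem2, a receptor of phagocytic microglia, at 8.63 to 16.4 CPM and 0.90 to 4.28 CPM. The part of these cell types in the members' values was not tested.

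Other genes of these pathways were described from 4 lists that do not hold the members and that were drawn up with earlier results known. Of all genes tested with pyraclostrobin, 12.1% were called higher and 9.22% lower. Of 37 other lysosomal enzymes and membrane proteins tested with pyraclostrobin, 20 were called higher and 2 lower, with a median log2 fold change of 0.80 against -0.0021 over all genes. Cd68, a macrophage lysosome protein, differed by 2.96 ± 0.22, Ctss, a cathepsin that is also a microglia marker, by 2.29 ± 0.55, and Tpp1, a lysosomal peptidase, by 2.26 ± 0.21. The 2 called lower, Atp6v0a1 at -0.64 ± 0.15 and Atp6v1b2 at -0.46 ± 0.11, encode subunits of the proton pump. Of 26 phagocyte activation genes, which include the microglia markers Trem2 and Tyrobp, 20 were called higher and 1 lower, with a median of 2.41. Msr1, a scavenger receptor, differed by 3.69 ± 0.36, S100a6, a calcium-binding protein, by 3.38 ± 0.42, and Clec7a, a lectin of activated microglia, by 3.36 ± 0.33.

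Of 27 sterol and lipid transport partners, 7 were called higher and 3 lower, beside 12.1% and 9.22% of all genes. Their median log2 fold change was 0.43. Plin2, which coats lipid droplets, differed by 2.51 ± 0.38, Pltp, which moves phospholipid between particles, by 2.00 ± 0.40, and Lipa, the lysosomal lipase that frees cholesterol from its esters, by 1.80 ± 0.26. Among those lower were the transporter Abcg4 at -0.77 ± 0.15 and the fatty acid synthase Fasn at -0.74 ± 0.13. All 13 cholesterol synthesis genes tested were called lower, with a median of -1.33, led by Mvd at -2.30 ± 0.29, Fdps at -1.73 ± 0.38 and Mvk at -1.70 ± 0.26. Without the libraries numbered 428, which left 11997 genes, 2376 of them called higher and 2397 lower, the calls were 20 higher and 3 lower for lysosomal, 20 and 1 for phagocyte, 10 and 7 for transport and 0 and 13 for synthesis genes.

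The screen allowed the members to be followed over 297 chemicals, 257 of them at 10 μM. Its values are deviations of expression within batches, here on the log2 scale, and a chemical with several libraries is given by their median. Of the 9 members, Abca1, Gpnmb, Lgals3 and Cd63 were among the 5121 genes with an SD above 0.1 on the deposited log10 scale, the genes on which the study clustered its chemicals. Members varied unequally over the vehicle libraries, with an SD of 0.94 for Lgals3 and 0.08 for Ctsb (n = 49), so that a deviation of the same size weighs less for Lgals3.

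The cluster that the study numbered 2 holds 8 chemicals: pyraclostrobin, famoxadone, fenamidone and trifloxystrobin, which block complex III at the Qo site, fenpyroximate, pyridaben and rotenone, which block complex I, and the herbicide oxyfluorfen. Over these 8 against the other 289, 7 of the 9 members were called higher by limma and 1 lower, beside 12.5% of all 13304 genes called higher and 20.1% called lower. The clusters were drawn from these values, so nothing is read from the counts. The member called lower was Lpl, which was not called at -0.14 without oxyfluorfen, -0.16 without fenpyroximate, -0.19 without pyraclostrobin and -0.15 without trifloxystrobin.

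Gpnmb, the phagocyte glycoprotein, ranged from 0.56 to 2.28 in the cluster with a median of 1.66, and the mean difference from the other chemicals was 1.35 ± 0.19 on the log2 scale. No other chemical reached its cluster median. Lgals3 ranged from 0.61 to 2.71 with a median of 1.94, and 6 other chemicals reached that median. Abca1 ranged from 0.13 to 1.44 with a median of 0.75, which 2 other chemicals reached. Among the transport genes only Abca1 and Apoe were higher, since Apoe differed by 0.48 ± 0.08, Abcg1 by -0.12 ± 0.10 and Lpl by -0.18 ± 0.07. The lysosomal genes Ctsb, Ctsd and Cd63 differed by 0.25 ± 0.03, 0.37 ± 0.05 and 0.86 ± 0.19. For Ctsd no other chemical reached the cluster median of 0.53, for Ctsb and Apoe 1 did, and for Cd63, which scattered widely over the screen, 11 did.

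**Figure D2:**
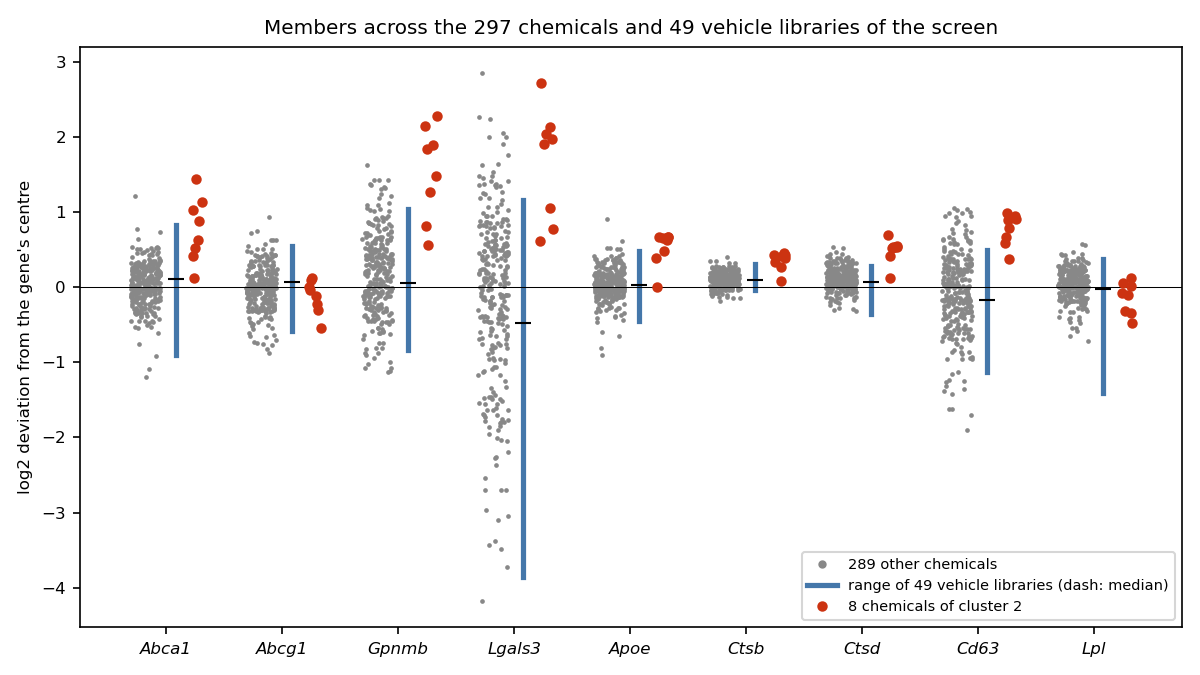
Log2 deviation of each member for the 289 other chemicals (grey) and the 8 chemicals of cluster 2 (red), with blue bars for the range of the 49 vehicle libraries and dashes at their median. Most of the cluster 2 chemicals lie in the upper part for 7 members, pyridaben lies amid the other chemicals for Abca1, Apoe, Ctsb and Ctsd, and all 8 do so for Abcg1 and Lpl.

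Within the cluster the chemicals were not alike. Fenamidone, famoxadone, fenpyroximate and pyraclostrobin each took 7 members above every one of the 49 vehicle libraries, namely all but Abcg1 and Lpl. Oxyfluorfen and trifloxystrobin took 5, rotenone took 2, and pyridaben took none and was the lowest of the 8 for each of those 7 genes. The highest vehicle library was not an equal bar for each gene. Over the whole screen, 44 chemicals passed it for Ctsd, 41 for Cd63, 32 for Lgals3 and 23 for Gpnmb. For Apoe and for Ctsb 11 did, and for Abca1 5 did. The share of all genes that a chemical took above it is not given here. These counts of members use the median of the libraries of a chemical, and 3 cluster chemicals had a pair of them. Famoxadone gave 0.79 and 1.25 for Abca1, 2.03 and 2.53 for Gpnmb, 1.92 and 2.04 for Lgals3, 0.52 and 0.74 for Apoe and 0.41 and 0.65 for Ctsd. Fenamidone gave 0.78 and 0.97 for Abca1, 1.72 and 1.95 for Gpnmb, 2.31 and 1.499 for Lgals3, 0.32 and 1.01 for Apoe and 0.39 and 0.72 for Ctsd. Rotenone gave 0.68 and 0.58 for Abca1, 1.20 and 0.41 for Gpnmb, 0.24 and 1.31 for Lgals3, 0.51 and 0.44 for Apoe and 0.36 and 0.45 for Ctsd. The spread within a pair thus differed by gene, wide for rotenone in Gpnmb and Lgals3 and for fenamidone in Apoe. The lower library lay under the highest vehicle library for Abca1, Apoe and Ctsb with fenamidone and for Abca1 and Ctsb with famoxadone. Of the 2 members counted for rotenone, Cd63 gave 0.25 and 0.92, where the highest vehicle library stood at 0.49.

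Inhibitors that share a target can be set side by side, though most had 1 library. Famoxadone, fenamidone, rotenone and azoxystrobin had 2 and are given by their medians, and no test was run. At 0.1 μM, the Qo inhibitor pyraclostrobin gave 1.14 for Abca1, 1.48 for Gpnmb, 2.71 for Lgals3 and 0.65 for Apoe. At the same dose azoxystrobin, also a strobilurin of the Qo site, gave -0.02, 0.11, 1.03 and -0.05, all within the range of the vehicle libraries. Among complex I inhibitors at 0.1 μM, fenpyroximate gave 1.44 for Abca1, the highest of the 297 chemicals, 2.15 for Gpnmb and 0.66 for Apoe, whereas pyridaben gave 0.13, 0.56 and 0.01. At 0.01 μM rotenone gave 0.63 for Abca1 and 0.81 for Gpnmb, and tebufenpyrad 0.11 and 0.14. At 10 μM the Qo inhibitors famoxadone, fenamidone and trifloxystrobin gave 1.02, 0.87 and 0.41 for Abca1 and 0.53, 0.55 and 0.52 for Ctsd. The libraries of famoxadone lay further apart in Abca1 than its median lay from that of fenamidone. The Qi-site inhibitor cyazofamid, at 10 μM too, gave 0.01 for Abca1, -0.07 for Gpnmb and 0.09 for Ctsd. Fluoxastrobin, measured at 1 μM, gave 0.21 for Abca1 and 0.82 for Gpnmb.

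The complex II inhibitors boscalid, carboxin and flutolanil at 10 μM lay at -0.17 to -0.04 for Abca1, -0.89 to -0.59 for Lgals3 and 0.28 to 0.38 for Gpnmb. Boscalid alone passed every vehicle library in 1 member, Apoe, at 0.51. Carboxin and flutolanil took none above them. The share of all genes that each took above them is not given here.

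**Figure D3:**
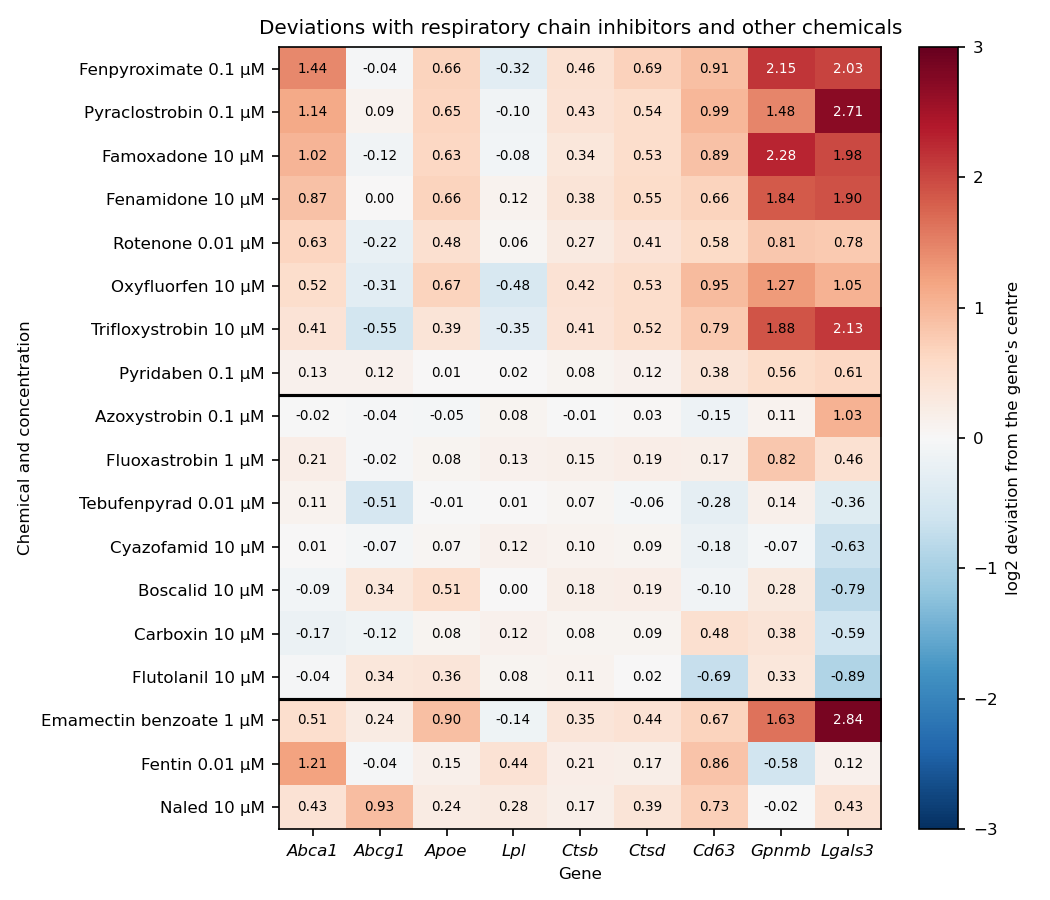
Log2 deviation of the 9 members (columns) for respiratory chain inhibitors and other named chemicals at the dose used (rows), with the value printed in each cell. Fenpyroximate, pyraclostrobin, famoxadone and fenamidone, as medians of their libraries, lie above the vehicle range in 7 members, and Abcg1 and Lpl stay near 0 or below in those rows.

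In the cluster, marker levels moved along with the members. The mean deviation of 9 astrocyte markers had a median of 0.40 in the cluster and -0.01 over the other chemicals, that of 10 neuron markers -0.59 and -0.01, that of 7 endothelial, mural and fibroblast markers 0.88 and 0.08, that of 6 oligodendrocyte lineage markers 0.06 and -0.04, and that of 5 microglia markers 0.39 and 0.04. The microglia mean ranged from -0.29 to 1.13 over the 8 chemicals. Their part in the members' values was not tested. For fenamidone at 10 μM, the study counted stained neurons, astrocytes and microglia and reported no significant change. It did not account for further cell types such as oligodendrocytes. In the lists, 21 of 37 lysosomal genes were called higher and 3 lower, the latter all proton pump subunits led by Atp6v0a1 at -0.25 ± 0.04, and Cd68, Laptm5 and Tfeb differed most upward at 0.81 ± 0.22, 0.68 ± 0.19 and 0.64 ± 0.25. Of 21 phagocyte genes 17 were called higher and 2 lower, with S100a6 at 1.24 ± 0.48, Lgals1, a galectin, at 1.23 ± 0.26 and Csf1, a growth factor of microglia, at 1.16 ± 0.11. Of 27 transport partners 8 were called higher and 7 lower, with Pltp at 0.72 ± 0.14 and Fasn at -0.42 ± 0.09. Of all genes, 12.5% were called higher and 20.1% lower in this comparison. All 13 synthesis genes were called lower, with a median of -0.62 against -0.01 over all genes.

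Some chemicals outside the cluster moved part of the group, each in a single library. Emamectin benzoate at 1 μM, an avermectin insecticide, took 6 members above every vehicle library and was the highest of 297 chemicals for Apoe at 0.90 and for Lgals3 at 2.84. It ranked 5 for Gpnmb at 1.63 and 16 for Abca1 at 0.51. Its marker means were 0.02 for microglia, 0.26 for astrocytes, -0.47 for neurons and -0.41 for endothelial, mural and fibroblast cells. Fentin at 0.01 μM, an organotin, showed another combination, with Abca1 at 1.21, rank 2 of all chemicals, Lpl at 0.44 and Cd63 at 0.86 above every vehicle library, and with Gpnmb at -0.58 and Apoe at 0.15. Organotins are known ligands of the retinoid X receptors, the partners of liver X receptors. Abcg1, like Abca1 a target of liver X receptors, stood at -0.04 with fentin. A part of these receptors in the values was not tested. The marker means of fentin were -0.07 for microglia and 0.11 for neurons. Butachlor, a herbicide, took Gpnmb, Lgals3, Apoe and Ctsd above every vehicle library. The share of all genes that these single libraries took above it is not given here, so nothing is read from the counts of members.

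Abcg1 had its own set of chemicals. Naled at 0.93, isazofos at 0.75 and dichlorvos at 0.72, all organophosphates, were highest, and difenoconazole at -0.87, imazamox at -0.82 and pirimiphos-methyl, another organophosphate, at -0.77 were lowest. Lpl was highest with isoxaflutole at 0.58, diquat dibromide at 0.56 and vinclozolin at 0.47, and lowest with lindane at -0.72, imazalil at -0.65 and fenpropathrin at -0.58. Cd63 was highest with prallethrin at 1.06, oxamyl at 1.04 and triadimefon at 1.03, none of them in the cluster. At the lower end Abca1 reached -1.20 with endosulfan, -1.08 with methylene bis(thiocyanate) and -0.91 with diethylhexyl pthalate, and Lgals3 reached -4.18 with MCPA and -3.72 with tebupirimfos, where 49 vehicle libraries ranged from -3.86 to 1.16. The lower end of Lgals3 is therefore within the spread of vehicle libraries or little beyond it.

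In the study's cluster 3, which includes the pesticide dicofol and the biocide methylene bis(thiocyanate), all 5 chemicals were below 0 for Apoe, at -0.82 to -0.04, and for Cd63, at -1.35 to -0.33. In its cluster 1, which includes flusilazole, mancozeb and imazalil, all 7 chemicals were below 0 for Lpl, at -0.65 to -0.19, and above 0 for Ctsd, at 0.13 to 0.32. In its cluster 6, which includes boscalid and methidathion, all 7 were below 0 for Abca1, at -0.45 to -0.09, while Ctsd lay at 0.13 to 0.41. These clusters were drawn from the same table, and the values are a description. The 49 vehicle libraries had a median of -0.17 for Cd63 and 0.07 for Ctsd. They ranged from -1.14 to 0.49 for Cd63, -0.46 to 0.48 for Apoe and -1.41 to 0.38 for Lpl. For Ctsd they ranged from -0.36 to 0.29 and for Abca1 from -0.90 to 0.82. Most of the values of these clusters lay within those ranges.

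The best replicated comparison of the screen was topotecan, in 32 libraries, against vehicle, in 49. Limma on log2 deviations called 4 members lower and 2 higher at an adjusted p under 0.05, beside 20.9% of all genes called lower and 24.9% called higher. Abca1 fell most clearly. It ranged from -0.84 to 0.21 with a median of -0.34 in topotecan libraries and from -0.90 to 0.82 with a median of 0.11 in vehicle libraries. The ranges overlapped, but 31 of 32 topotecan libraries lay below the vehicle median, and the difference was -0.43 ± 0.06 (limma, adjusted p = 1.11e-08). Abca1 is the longest member, at 129.1 kb, and the study states that inhibitors of this kind lower long genes. A part of gene length in these values was not tested. Lpl ranged from -0.88 to 0.04 with a median of -0.29 against a vehicle median of -0.03, and 29 of 32 libraries lay below that vehicle median. The difference of Lpl was -0.26 ± 0.06 (limma, adjusted p = 0.000227). Gpnmb ranged from -1.28 to 0.53 with a median of -0.30 against 0.06 with vehicle, and fell by 0.31 ± 0.10 (limma, adjusted p = 0.00588), below the vehicle median in 25 of 32 libraries. Apoe, with medians of -0.11 and 0.03, fell by 0.13 ± 0.04 (limma, adjusted p = 0.00636), below the vehicle median in 26 of 32.

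Lgals3 and Cd63 rose. Lgals3 had a median of 0.10 with topotecan and -0.48 with vehicle, and was 0.71 ± 0.22 higher (limma, adjusted p = 0.00699), above the vehicle median in 26 of 32 libraries. Cd63 had medians of 0.11 and -0.17, and was 0.33 ± 0.10 higher (limma, adjusted p = 0.00473), above the vehicle median in 25 of 32. Both scattered over more than 2 log2 units within the topotecan libraries. The cathepsin genes did not pass the test, with Ctsb at 0.0015 (95% confidence interval -0.04 to 0.04, adjusted p = 0.96) and Ctsd at 0.03 (-0.04 to 0.09, adjusted p = 0.555), nor did Abcg1 at -0.01 (-0.10 to 0.09, adjusted p = 0.917). The intervals of these 3 genes reach no further than -0.10 and 0.09 on the log2 scale. Gpnmb and Lgals3, both high with pyraclostrobin, thus moved in opposite directions with topotecan.

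**Figure D4:**
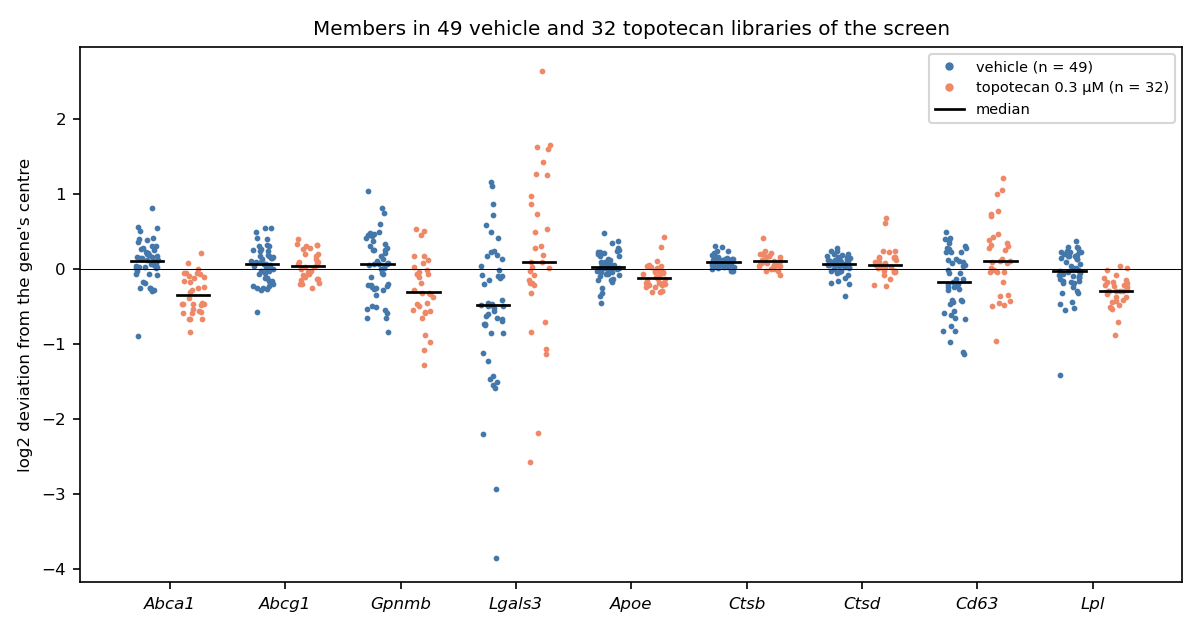
Log2 deviation of each member in 49 vehicle libraries (blue) and 32 topotecan libraries (red), with bars at the medians. Abca1, Gpnmb, Apoe and Lpl are lower and Lgals3 and Cd63 higher with topotecan, and all ranges overlap.

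Beside these values, the mean of 9 astrocyte markers had a median of -0.33 with topotecan and -0.03 with vehicle, with Gfap lower by 0.72 on the log2 scale, that of 10 neuron markers -0.25 and 0.04, and that of 5 microglia markers 0.02 and 0.05, although Cx3cr1, a microglial receptor, was at -0.60 ± 0.12 (limma, adjusted p = 1.16e-05). Means of oligodendrocyte lineage markers had medians of -0.12 and -0.03, and those of endothelial, mural and fibroblast markers -0.08 and 0.08. Their part in the members' differences was not tested. Of 13 cholesterol synthesis genes 10 were called lower and none higher with topotecan, with a median of -0.25 against 0.03 over all genes, and Insig1, which holds back the sterol sensor SCAP, fell by 0.40 ± 0.05 (limma, adjusted p = 1.37e-10). Of 27 transport partners 12 were called higher and 6 lower, the largest Plin2 at 1.19 ± 0.17 (limma, adjusted p = 6.45e-09). Of 37 lysosomal genes 11 were called higher and 3 lower and of 21 phagocyte genes 7 and 4, where 24.9% of all genes were called higher and 20.9% lower. Lgals1 rose by 0.62 ± 0.14 (limma, adjusted p = 0.000166) and Mertk, a receptor for dying cells, fell by 0.46 ± 0.12 (limma, adjusted p = 0.00071).

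Azole fungicides inhibit sterol demethylase, a step of sterol synthesis. Against the other 281 chemicals, the 16 azoles and related inhibitors moved none of the 9 members past the test, where limma called 0.12% of all genes higher and 0% lower, with 445 genes higher and 486 lower at an unadjusted p under 0.05. Abcg1 came closest. It ranged from -0.87 to 0.08 with a median of -0.09 over the azoles and had a median of 0.02 over the others, and 11 of 16 lay below that median. The difference was -0.20 (95% confidence interval -0.34 to -0.05, limma, adjusted p = 0.461), and against the vehicle libraries it was -0.25 (limma, adjusted p = 0.0314). Abca1 differed by -0.12 (-0.27 to 0.04, adjusted p = 0.858), Apoe by -0.0013 (-0.12 to 0.11, adjusted p = 0.999) and Lgals3 by 0.31 (-0.28 to 0.90, adjusted p = 0.933). The adjusted p of the other 5 members ran from 0.76 to 0.99.

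Of 13 cholesterol synthesis genes tested with the azoles, 6 were called higher and none lower, with a median of 0.25. Idi1, which isomerizes the isoprenoid precursor, was higher by 0.45 ± 0.08 (limma, adjusted p = 0.000789), Lss, which closes the sterol rings, by 0.40 ± 0.09 (limma, adjusted p = 0.0184), and Insig1 by 0.34 ± 0.07 (limma, adjusted p = 0.0148). Fasn was higher by 0.26 ± 0.06 (limma, adjusted p = 0.0488). The count of synthesis genes called ranged from 1 to 7 when 1 azole was left out, and was 1 without flusilazole, difenoconazole, triticonazole or propiconazole. None of the lysosomal or phagocyte genes was called.

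**Figure D5:**
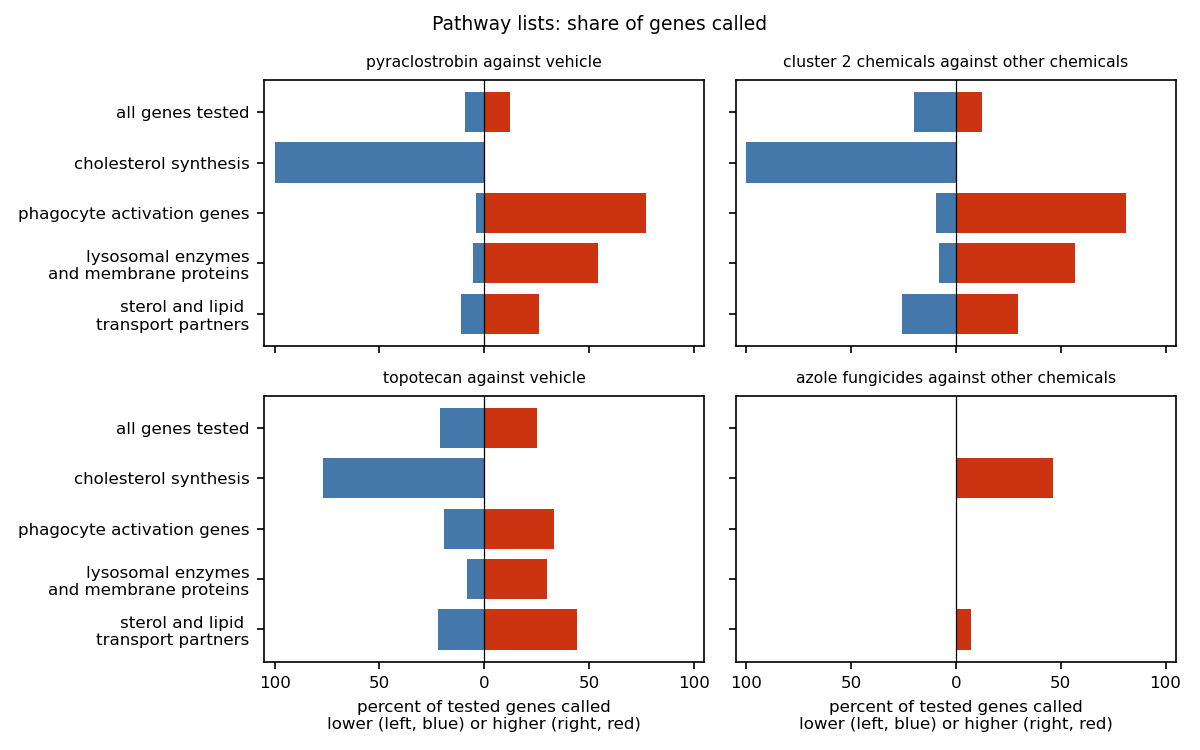
Percent of the tested genes of each list, and of all genes, called lower (left) or higher (right) with pyraclostrobin (adjusted p under 0.01) and, in the screen, with cluster 2, topotecan and the azoles (adjusted p under 0.05). All 13 cholesterol synthesis genes were called lower with pyraclostrobin and in cluster 2 and 10 with topotecan, while 6 were called higher with the azoles.

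Over the medians of the 297 chemicals the members did not vary as 1 group. Spearman correlations, given as a description since libraries, depth and culture makeup are shared by the points, ranged from 0.06 to 0.68 over the 21 pairs without Abcg1 or Lpl and from -0.21 to 0.14 over the 15 pairs with either of them. Ctsb and Ctsd were the closest pair at 0.68, and at 0.65 over the 289 chemicals outside cluster 2. Apoe and Ctsb stood at 0.48 and 0.44, and Ctsd and Cd63 at 0.42 and 0.38.

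The genes most like each member over all 13304 genes of the screen differed between members. For Abca1 they were Tead1 at 0.50, Eda2r at 0.48 and Qk at 0.48, and no other member was among them. For Apoe they were Slc1a3, the glutamate transporter of astrocytes, at 0.60, Mlc1 at 0.56 and Abhd4 at 0.55. Gpnmb was closest to Spp1, the secreted phosphoprotein of activated phagocytes, at 0.46, Ctsd at 0.41 and Sepp1 at 0.40, and Lgals3 to Gss at 0.36, Psap at 0.30 and Gdf15 at 0.29. After Ctsd, Ctsb was closest to Cd151 at 0.50 and Hmox1 at 0.49, and after Ctsb, Ctsd to Igfbp2 at 0.57 and Vim at 0.56. Cd63 followed Ctsd at 0.42, Clu at 0.42 and Cd151 at 0.41. Lpl was closest to Syn2, a gene of synaptic vesicles, at 0.55, Ldb2 at 0.53 and Sez6l at 0.53, and Abcg1 to Pcdh8 at 0.34, Tacc2 at 0.33 and Pvrl1 at 0.32, the weakest set of nearest genes beside that of Lgals3.

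The 49 vehicle libraries, which carried no chemical, were used to ask whether members varied with cell type markers or with each other without treatment. In all, 72 correlations were computed, each with 100000 permutations and adjusted together by Benjamini-Hochberg, and 4 passed 0.05 by both measures. Apoe followed the mean of the astrocyte markers with a Pearson r of 0.54 (permutation p = 0.00011, adjusted 0.00612) and a Spearman rho of 0.47 (permutation p = 0.00066, adjusted 0.0218), and r was 0.48 without the 2 libraries farthest from the median of the marker mean. Apoe also followed the mean of 5 microglia markers, with r = 0.48 (permutation p = 0.00053, adjusted 0.0127), rho = 0.46 (permutation p = 0.00127, adjusted 0.0229) and r = 0.40 without 2 libraries. Apoe is made by both cell types.

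Gpnmb followed the microglia mean with r = 0.41 (permutation p = 0.00355, adjusted 0.032) and rho = 0.47 (permutation p = 0.00067, adjusted 0.0218), and r was 0.42 without 2 libraries. Ctsd did so with r = 0.42 (permutation p = 0.00293, adjusted 0.0301), rho = 0.46 (permutation p = 0.00091, adjusted 0.0218) and r = 0.49 without 2 libraries. Abca1 passed with no marker list by both measures, its r of 0.51 with the astrocyte mean standing beside a rho of 0.34. Of the 36 pairs of members, 1 passed by Pearson, Abca1 with Apoe at r = 0.43 (permutation, adjusted 0.0301), whose rho of 0.30 did not (permutation, adjusted 0.157), and 0 passed by Spearman, with 8 and 6 pairs at an unadjusted permutation p under 0.05. The authors had centred the values within batches that the labels do not name, so within-batch values cannot be given.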

How the data were processed

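RNA of cortical cultures was sequenced after exposure to chemicals or vehicle. Per the labels and the methods, the authors aligned reads to mm9 with TopHat and deposited raw counts per gene for the pyraclostrobin experiment and, for the screen, log10 values that they had corrected for batches and centred per gene, so that a screen value is a deviation and not a level. Depth of the screen libraries is unknown from these values. Members and gene lists were chosen with earlier results of these data known, so contrasts known to be part of the choice carry no p for members.

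Counts were tested with edgeR 4.0.16 (TMM scaling, quasi-likelihood test, adjusted p under 0.01) over genes that reached 10 counts in 4 or more libraries. Screen values were turned to log2, chemicals were summarised by the median of their libraries, and limma 3.58.1 with a variance trend was used (adjusted p under 0.05, Benjamini-Hochberg over all genes). R was version 4.3.3. Both tests were tested on simulated data. The study describes the pyraclostrobin experiment as done in quadruplicate, yet its figure legend gives fewer biological replicates than libraries. Whether all 4 treated libraries came from separate cultures is therefore not known. For the vehicle libraries of the count table the sources used here do not say whether they came from separate cultures. The study removed effects of culture and sequencing batches from the screen, but the labels do not name the batch of a library. Limma was run on these corrected values without a batch term. How far p-values reflect spread between cultures is therefore not known, and some may measure technical spread alone. Intervals and SEs of counts cover the spread of these libraries.

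Named genes were all members, up to 3 called genes of each list in each direction with the largest difference, and for each member the 3 nearest genes and the 3 chemicals at either end. Chemicals described for several members together, such as emamectin benzoate, butachlor and the study's clusters, were taken after their values were seen. A gene that this rule names is not reported here. A sulforaphane table of 6 columns, whose names do not tell its libraries apart, was not used, and its planned comparison was not run. DESeq2 1.42.0, another scaling, no filter, other thresholds, the replicate block, variable genes alone, vehicle libraries as the reference, and leaving out each library or chemical were tried as alternatives.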

Additional observations from a re-analysis of the deposited data

Results flagged for a closer look

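Of 27 combinations of a member and a group of 4 to 10 samples, 5 held a value that stood far from the rest of its group, where chance gives about 1 in 20. All 5 were libraries numbered 428. The members share the same libraries, so the combinations are not independent and the 5 cannot be judged by that rate. With pyraclostrobin, Abca1 stood at 512.2 CPM in that library and at 236.3 to 283.1 CPM in the others. With vehicle, Apoe stood at 472.9 CPM against 175.3 to 204.3 CPM, Ctsb at 521.4 CPM against 359.9 to 386.1 CPM, Cd63 at 13.2 CPM against 3.00 to 3.89 CPM and Lpl at 201.5 CPM against 83.6 to 96.1 CPM. In each case the library was the highest of its group. Its cause was not tested.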

How the results depend on the processing

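With pyraclostrobin, 1495 genes were called higher and 1136 lower. The counts were 2277 and 2024 at a threshold of 0.05, and 2376 and 2397 without both libraries numbered 428, an alternative added after the data were seen. Leaving out 1 library gave 1002 to 2143 higher and 680 to 1909 lower, lowest without vehicle library 703. Apoe lost its call without vehicle library 702, 703 or 704 (1.51, 1.53 and 1.48), Cd63 without vehicle library 703 (2.19), and Lpl gained one without vehicle library 428 (0.50). Signs turned among members that were not called, with Abcg1 at -0.23 to 0.0001 and Lpl at -0.024 to 0.50 over the libraries left out. The cause was not tested. DESeq2 called 1842 and 1600 genes and 7 members.

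Same-numbered libraries correlated at 0.38, 0.10, -0.03 and 0.16, so 3 of 4 pairs passed 0.1 and not every library correlated best with its own number. The numbers were not taken as pairs. The replicate block gave 1717 higher and 1418 lower, called the 7 members, brought smaller errors for some (Abca1 2.43 ± 0.15, Apoe 1.70 ± 0.11) and raised the astrocyte markers called higher from 3 to 7 of 9.

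Among the 5121 variable genes alone, which hold 4 members, cluster 2 calls were 625 higher and 451 lower, or 12.2% and 8.81%. Topotecan calls there were 1030 and 758, or 20.1% and 14.8%. Over all 13304 genes the shares were 12.5% and 20.1% for cluster 2 and 24.9% and 20.9% for topotecan. Leaving out 1 cluster chemical gave 1321 to 1668 higher and 2305 to 2737 lower. Lpl lost its call without oxyfluorfen, fenpyroximate, pyraclostrobin or trifloxystrobin (-0.14, -0.16, -0.19 and -0.15) and with vehicle libraries as the reference (-0.05). Topotecan calls of members kept their direction and side of the threshold under every alternative that held them.

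Azole calls were 6 higher and 0 lower among variable genes, 150 and 206 against vehicle libraries, where Abcg1 passed at -0.25, and 1 to 27 and 0 to 3 over the chemicals left out. Of members that did not pass, signs turned against vehicle libraries for Gpnmb (0.17), Apoe (0.016) and Cd63 (0.067), and over the chemicals left out for Gpnmb (-0.057 to 0.048), Apoe (-0.020 to 0.017), Ctsb (-0.018 to 0.0028) and Cd63 (-0.12 to 0.010). The sulforaphane comparison and its alternatives were not run. Depth limits Lgals3 most, with 3 to 20 counts in vehicle libraries.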
